A study of Mus musculus with 6 samples.

Results

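The 9 genes described here mark the epithelial surface or are used to sort stem-like cells of the mammary gland and its tumours: Epcam, Prom1, Prom2, Cd24a, Cd44, Aldh1a1, Aldh1a3, Ly6a and Procr. They were taken by gene symbol from the 47729 genes of the deposited table, and each symbol matched 1 gene. The libraries came from 4T1 and 4TO7, mouse mammary carcinoma cell lines that trace back to a spontaneous tumour in the BALB/c strain. Each line was represented by 3 libraries of total RNA from untreated cells, grown in DMEM with 10% serum; the labels name no genetic change or agent in either line. Each line is a single established culture, and the labels do not say whether the 3 samples of a line were grown independently, so the spread behind each p-value is that of these samples and may be technical.

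As background, EpCAM is a homophilic adhesion protein of epithelial cells, and CD24 is a small, heavily glycosylated protein held in the membrane by a lipid anchor. Prominin-1 (CD133) and prominin-2 are pentaspan proteins that sit in membrane protrusions and bind cholesterol. CD44 is the main receptor for hyaluronan, and cells with high CD44 and low CD24 at the surface are enriched for tumour-initiating activity in human breast cancer. ALDH1A1 and ALDH1A3 oxidise retinaldehyde to retinoic acid and account for much of the aldehyde dehydrogenase activity that is used to sort stem-like cells. Sca-1, the product of Ly6a, and the endothelial protein C receptor, the product of Procr, mark progenitor populations of the mouse mammary gland.

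The libraries held 33605566 to 39072639 reads assigned to genes. Across genes, libraries of 1 line correlated at r of at least 0.978 on log2 values, against at most 0.848 between lines. 4TO7 replicate 2 stood apart from the other two 4TO7 libraries on the second principal component, which held 5.27% of the variance, and results that rest on it are given with and without it. All 8 luminal epithelial marker genes examined were higher in 4T1, with summed normalised read counts of 174039 to 198266 against 25959 to 42665 in 4TO7. Most of the 4TO7 sum was Krt8, at a mean of 21578, and Krt18, at 13535, both keratins of simple epithelium. The other markers were low there. Krt7, Krt19, Esrp1 and Cldn3 had 41, 4, 3 and 4 reads in 4TO7, against 127845, 14354, 10499 and 11316 in 4T1. Cdh1 was at a mean of 170 in 4TO7 against 19351 in 4T1, and Elf3 at 189 against 821. Of 10 leukocyte markers, Cd3e, Adgre1, Ly6g and Tyrobp had 0 reads in every library, and the sum, mostly Cd68, was 251 to 471 in 4T1 and 94.5 to 160 in 4TO7. Summed counts of 7 endothelial markers were 12.6 to 21.2 in 4T1 and 15.7 to 65.7 in 4TO7. The sum of 7 basal epithelial markers was 1183 to 1659 in 4T1, mostly Krt14, and 5.61 to 8.96 in 4TO7. The sum of 7 fibroblast markers, mostly Pdgfra, was higher in 4TO7, at 1721 to 7522 against 589.9 to 1372, while Col3a1 and Lum had 0 reads in every library. What part these marker differences have in the results below was not tested.

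The 9 genes fell into 3 kinds of pattern. Epcam and Prom2 were abundant in 4T1 and near or at 0 in 4TO7, Cd24a, Cd44 and Procr were abundant in both lines at unequal levels, and Ly6a, Aldh1a1, Aldh1a3 and Prom1 had few reads anywhere. Of the 9, 6 had a value of at least 10 in 3 or more libraries and were tested, and all 6 were higher in 4T1 at an adjusted p under 0.05 in limma, with 0 higher in 4TO7. Over the 14276 genes tested, 25.1% were called higher in 4T1, 23.9% higher in 4TO7 and 49.0% in either direction. In each of the 6 the 3 libraries of 4T1 lay above the 3 of 4TO7, as they did in 29.8% of all genes tested; 4TO7 lay above in 28.7%, and 58.4% did not overlap either way. Prom2 and Ly6a passed the filter through 4T1 alone, so a difference was bound to appear in them and the count of 6 is a description. The Procr call, with an adjusted p just under the threshold, was lost in 9 of 16 alternative analyses. The count was 5 without 4TO7 replicate 2, and also without 4TO7 replicate 1 or 3 or 4T1 replicate 1 or 3.

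**Figure D1:**
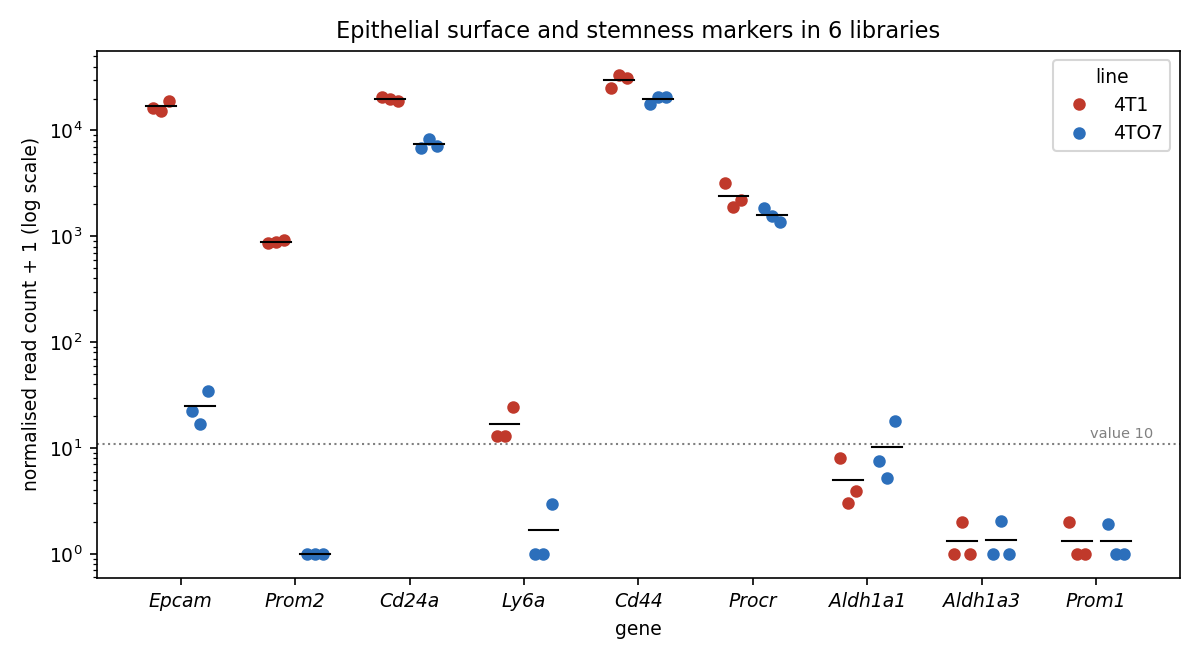
Normalised read count plus 1, on a log scale, of the 9 genes in each of the 6 libraries (points; red 4T1, blue 4TO7) with the mean of each line (black bar). Epcam and Prom2 separate the lines by more than 2 orders of magnitude, the lines lie close together in Cd44 and Procr, and Aldh1a1, Aldh1a3 and Prom1 stay low in both lines; the dotted line marks the value 10 used in the filter.

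Epcam lies on the forward strand of chr17:87635979-87651129 (GRCm38; identifier ENSMUSG00000045394). Its normalised read count was 16446, 15433 and 19059.6 in 4T1 and 21.5, 15.7 and 33.8 in 4TO7, listed here and below from replicate 1 to 3. All 4T1 libraries were high and all 4TO7 libraries low, with no approach between the groups. The means were 16979.6 ± 1871 (SD, n = 3) and 23.7 ± 9.25 (SD, n = 3), a 717-fold difference, with a log2 fold change of 9.49 ± 0.26 (SE) and an adjusted p of 1.15e-07 in limma. Epcam was not absent from 4TO7: its 3 libraries together held 72 reads, against 51533 in 4T1. The coefficient of variation was 11.0% in 4T1 and 39.1% in 4TO7. In bulk RNA, fewer cells that express a gene and less RNA per cell cannot be told apart, so these reads do not show whether the 4TO7 signal came from few cells or from all of them.

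Prom2 lies on the reverse strand of chr2:127526473-127541467 (ENSMUSG00000027376). Its normalised read count was 861.6, 879.8 and 921.9 in 4T1, and it was listed at 0 in all 3 4TO7 libraries. The 4T1 libraries held 2692 reads in all and were closely alike, with a coefficient of variation of 3.49%. Against a floor of 3 reads over the 3 4TO7 libraries, Prom2 was at least 896-fold higher in 4T1. The limma adjusted p was 1.04e-07, but Prom2 entered the test through 4T1 alone, so this p-value adds no support. Its paralogue Prom1, at chr5:43993620-44102032 on the reverse strand, had 1 read in 4T1 replicate 1 and 1 read in 4TO7 replicate 1. Of the prominin pair, then, transcripts of the CD133 gene were at the limit of detection in both lines. Fgfbp1, the protein-coding gene that precedes Prom1 on the chromosome and encodes a carrier of fibroblast growth factors, had 5887 reads in 4T1 and 3 in 4TO7.

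The 2 genes with the widest gap between the lines, Epcam and Prom2, are shown with the sequence just before their transcription starts, and Cd44, abundant in both lines, is shown for comparison. The windows are taken from RefSeq on GRCm38.p6, of which 6 of the 9 genes had an entry, and run 5′ to 3′ on the strand of the gene. Capitals mark 3 motifs on either strand: CACCTG, the E-box bound by ZEB and SNAIL factors; ACCGGT, the core of grainyhead-type sites; and GGGCGG, the GC box bound by SP factors. The Epcam window is chr17:87635729-87635978 (+), the Prom2 window chr2:127541468-127541667 (-), which stops short of the annotated exon, and the Cd44 window chr2:102901666-102901915 (-).
Epcam: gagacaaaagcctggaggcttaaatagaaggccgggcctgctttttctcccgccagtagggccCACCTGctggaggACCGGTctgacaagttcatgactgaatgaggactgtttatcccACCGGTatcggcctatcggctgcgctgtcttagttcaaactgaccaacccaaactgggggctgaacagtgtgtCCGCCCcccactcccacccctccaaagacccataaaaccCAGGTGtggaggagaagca
Prom2: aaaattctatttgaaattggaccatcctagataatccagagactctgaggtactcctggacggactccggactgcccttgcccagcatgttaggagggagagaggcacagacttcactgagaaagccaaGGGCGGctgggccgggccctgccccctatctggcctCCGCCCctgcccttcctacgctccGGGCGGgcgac
Cd44: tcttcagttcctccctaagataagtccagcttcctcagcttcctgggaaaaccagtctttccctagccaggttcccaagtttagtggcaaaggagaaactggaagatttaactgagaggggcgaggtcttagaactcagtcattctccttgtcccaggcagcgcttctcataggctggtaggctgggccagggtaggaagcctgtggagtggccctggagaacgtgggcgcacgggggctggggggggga
Counted to the first base of the motif as printed, the Epcam window held CACCTG 187 and 19 bases before the RefSeq start, ACCGGT at 174 and 131, and GGGCGG at 58. The Prom2 window, which ends 50 bases short of the RefSeq start, held GGGCGG at 121, 85 and 61 bases before it, and the Cd44 window held none of the 3 motifs. Genes without a called difference held motifs too. A Prom1 window, which lies within annotated exons, held CACCTG at 222 and GGGCGG at 62, and an Aldh1a1 window held CACCTG at 163. The other window of each of these genes and the Procr window held none. Among 32851 RefSeq windows of 250 bases, 17.2% held CACCTG, 1.86% ACCGGT and 32.7% GGGCGG. The motifs were chosen after the sequences had been seen, none overlapped another, and a match describes letters and not a bound site. The lines come from BALB/c, whereas the reference is of another strain.

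Genes that act with EpCAM were measured beside it. Of 13 such genes, 12 were tested, with 8 higher in 4T1 and 1 higher in 4TO7. The median log2 fold change was 1.35, against 0.03 over all genes tested. Over all genes tested, 25.1% were higher in 4T1 and 23.9% in 4TO7, and the list counts here and below stand beside those shares. Of the list genes named, Cldn7, Ly6e, Alcam and Aldh1b1 passed the filter through 4T1 alone, and Cemip and Aldh1a7 through 4TO7 alone. A difference was bound to appear in these genes. Cldn7, a tight-junction claudin that binds EpCAM, had a normalised read count of 2932 ± 41.6 (SD, n = 3) in 4T1 and 3.55 ± 2.31 (SD, n = 3) in 4TO7. St14, the gene of matriptase, a surface protease that cleaves EpCAM, was at 9581 ± 891 and 87.1 ± 24.3 (SD, n = 3 each). Both genes had a steep gap between the lines, as Epcam did. The gap was smaller in 2 genes for inhibitors of matriptase. Spint2 stood at 9378 ± 571 and 6249 ± 1168 (SD, n = 3 each, limma adjusted p = 0.0162). Spint1 stood at 4751 ± 324 and 1329 ± 16.4 (SD, n = 3 each, limma adjusted p = 8.35e-06). The gene higher in 4TO7 was Adam10, a sheddase, at 7134 ± 1579 against 14362 ± 1529.6 (SD, n = 3 each; limma adjusted p = 0.00235).

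Cd24a lies on the forward strand of chr10:43578284-43584265 (ENSMUSG00000047139). Its normalised read count was 20927, 19717 and 18867 in 4T1 and 6786, 8248 and 7115 in 4TO7. Every 4T1 library lay far above every 4TO7 library, and 4TO7 still expressed the gene strongly. The means were 19837 ± 1035 and 7383 ± 767 (SD, n = 3 each), a 2.69-fold difference (log2 fold change 1.43 ± 0.13 SE, limma adjusted p = 4.5e-05). Per read of Cd24a and per exon length, Epcam was present at a ratio of 1.01 ± 0.153 in 4T1 and 0.00385 ± 0.00168 in 4TO7 (SD, n = 3 each). The gap between the lines in Epcam was thus far wider than that in Cd24a.

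Cd44 lies on the reverse strand of chr2:102811141-102901665 (ENSMUSG00000005087). Its normalised read count was 25353, 33628 and 31224 in 4T1 and 17827, 20848 and 20625 in 4TO7. The lowest 4T1 library, replicate 1, was above the highest 4TO7 library, replicate 2, by a modest margin. The means were 30068 ± 4257 and 19766 ± 1684 (SD, n = 3 each), a 1.52-fold difference (log2 fold change 0.60 ± 0.15 SE, limma adjusted p = 0.01). The adjusted p rose to 0.0483 without 4TO7 replicate 1, and to 0.0506 when the low-value filter was also applied again to the 5 libraries left. The counts are per gene and do not separate the standard form of CD44 from its splice variants.

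The ratio of Cd44 to Cd24a, each per exon length, was compared within libraries because the 2 proteins are read together in cell sorting. It was 0.461, 0.649 and 0.63 in 4T1 and 1.00, 0.962 and 1.10 in 4TO7. All 3 4TO7 libraries were above all 3 4T1 libraries. The mean was 0.58 ± 0.103 in 4T1 and 1.02 ± 0.0731 in 4TO7 (SD, n = 3 each), 1.76 times as high in 4TO7, with a two-sided exact permutation p of 0.1, the smallest that 3 against 3 can give. Although both genes were higher in 4T1, the ratio was higher in 4TO7, because Cd24a differed by more than Cd44. The ratio was chosen after the values had been seen, it follows from the 2 fold changes already given, and it concerns transcripts of whole cultures, not surface protein on cells.

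**Figure D2:**
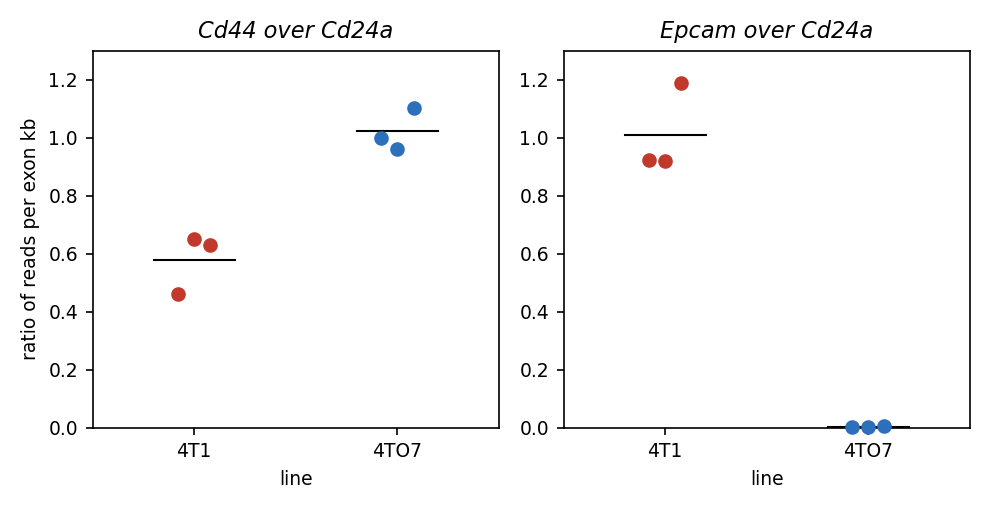
Ratio of reads per exon kilobase of Cd44 to Cd24a (left) and of Epcam to Cd24a (right) in each library (points; red 4T1, blue 4TO7), with the mean of each line as a bar. Cd44 to Cd24a lies between 0.461 and 0.649 in 4T1 and between 0.962 and 1.10 in 4TO7, whereas Epcam to Cd24a is near 1.01 in 4T1 and near 0 in 4TO7.

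Around CD44, 16 of 19 genes for ligands, hyaluronan enzymes and cytoskeletal linkers were tested, with 8 higher in 4T1, 4 higher in 4TO7 and a median log2 fold change of 0.45. Has2, a hyaluronan synthase, was at 4846 ± 845 in 4T1 and 719 ± 267 in 4TO7, and Has3, another synthase, at 163 ± 48.0 and 15.6 ± 3.97 (SD, n = 3 each). Mmp9, a matrix protease that docks on CD44, was at 4310 ± 1460 and 319.7 ± 161.5. In the other direction, Cemip, which takes part in hyaluronan breakdown, had 3 reads in 4T1 and 239 in 4TO7, a ratio of 79.7 with an exact 95% counting interval of 27.0 to 389; its fold of means moved from 77.3 to 156 without 4T1 replicate 1. Spp1, which encodes osteopontin, a secreted CD44 ligand, was at 29021 ± 3323 in 4T1 and 150313 ± 49386 in 4TO7 (SD, n = 3 each; limma adjusted p = 0.000142). Its 4TO7 libraries held 174026, 93543 and 183371, with replicate 2 the lowest and still above every 4T1 library. The mean of Spp1 was 5.18-fold higher in 4TO7, and 6.16-fold higher without 4TO7 replicate 2. The 2 remaining genes higher in 4TO7 were Hyal1, a hyaluronidase, at 88.9 against 299 and Vcan, the proteoglycan versican, at 14.1 against 34.3. Genes of hyaluronan breakdown were split, since Hyal2 (2219 against 1487) and Tmem2, a hyaluronidase of the cell surface (2884 against 1056), were higher in 4T1. Has1, the remaining synthase gene, had 1 read in 4T1 and was not tested.

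Of the aldehyde dehydrogenases among the 9 genes, neither reached the test. Aldh1a1, on the forward strand of chr19:20492715-20643465 (ENSMUSG00000053279), had a normalised read count of 7.06, 1.99 and 2.90 in 4T1 and 6.55, 4.19 and 16.9 in 4TO7. The lines overlapped, and the highest library was 4TO7 replicate 3. The means were 3.98 ± 2.70 and 9.22 ± 6.77 (SD, n = 3 each), from 12 and 28 reads in all, with a two-sided exact permutation p of 0.3. The 2.31-fold higher mean in 4TO7 was 1.35-fold without 4TO7 replicate 3 and 3.77-fold without 4T1 replicate 1, so a difference was not detectable at this depth. Aldh1a3, on the reverse strand of chr7:66390890-66427517, had 1 read in 4T1 replicate 2 and 1 in 4TO7 replicate 2.

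Among 18 other aldehyde dehydrogenases, 14 were tested, 3 were higher in 4T1 and 4 in 4TO7, and the median log2 fold change was -0.07. Aldh1l2, the mitochondrial enzyme of folate-linked formate metabolism, was at 33.6 ± 17.9 in 4T1 and 1928 ± 527 in 4TO7 (SD, n = 3 each; limma adjusted p = 1.82e-05). Aldh1a7, a close paralogue that lies 49488 bases after Aldh1a1, had 2 reads in 4T1 and 89 in 4TO7, a ratio of 44.5 (exact 95% counting interval 11.97 to 374). Its fold of means fell to 29.4 without 4T1 replicate 1 or 3 and to 26.5 without 4TO7 replicate 3. Reads of the close paralogues Aldh1a1 and Aldh1a7 may have been divided in ways that cannot be traced, so both counts are uncertain. Aldh1b1, a mitochondrial family member, had 37 reads in 4T1 and 0 in 4TO7, at least 12.3-fold higher in 4T1, and Aldh1a2, the third retinaldehyde dehydrogenase of this class, had 0 reads in every library. Aldh2 and Aldh9a1, both abundant, did not pass the test, at 11026 against 13278 and at 3439.7 against 3445.

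The retinoid genes around ALDH1A did not move in 1 direction. Of 22 genes, 12 were tested, 4 higher in 4T1 and 3 in 4TO7; the median log2 fold change was 0.15. Rdh10, which makes retinaldehyde from retinol, was at 4129 ± 1222 in 4T1 and 733 ± 153 in 4TO7 (SD, n = 3 each). Tgm2, transglutaminase 2, a gene induced by retinoic acid, was at 1691 ± 443 and 12648 ± 7697 (SD, n = 3 each; limma adjusted p = 0.00348). Its 4TO7 libraries held 15068, 4032 and 18843, so replicate 2 was again the lowest. The mean of Tgm2 was 7.48-fold higher in 4TO7, and 10.0-fold higher without 4TO7 replicate 2. Rarb, the retinoic acid receptor that is itself a retinoid target, had 8 reads in 4T1 and 0 in 4TO7 and was not tested.

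Ly6a lies on the reverse strand of chr15:74994877-74998031 (ENSMUSG00000075602). Its normalised read count was 12.1, 11.96 and 23.2 in 4T1 and 0, 0 and 1.99 in 4TO7. All 4T1 libraries were above all 4TO7 libraries, but the level was low in each line. The 48 reads in 4T1 and 2 in 4TO7 gave a ratio of 24.0, with an exact 95% counting interval of 6.29 to 204. The limma adjusted p of 0.000978 adds no support, since Ly6a passed the filter through 4T1 alone. Both 4TO7 reads came from replicate 3; without it Ly6a was at least 10.7-fold higher in 4T1. Ly6a belongs to a cluster of similar genes, and reads shared with a neighbouring copy cannot be traced. Summed leukocyte markers, mostly Cd68, were also higher in 4T1, with the values given above. Csf1r had 85 reads in 4T1 and 9 in 4TO7, and Ptprc had 12 and 1. Fcer1g had 3 reads in each line, and Itgam had 0 in 4T1 and 1 in 4TO7. What part such markers have in the Ly6a difference was not tested.

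Most relatives of Ly6a were silent or nearly so. Of 26 genes of the Ly6 and urokinase-receptor family, 4 were tested, with 1 higher in 4T1, 1 higher in 4TO7 and a median log2 fold change of 0.57. The gene higher in 4T1 was Ly6e, a widely expressed member of the family, at 824 ± 132 (SD, n = 3) from 2492 reads, against 3 reads in 4TO7, a ratio of 829.9 (exact 95% counting interval 284 to 4027). Its fold of means moved from 863 to 1656 without 4TO7 replicate 1. Lypd3, which encodes the adhesion protein C4.4A, was the gene higher in 4TO7, at 519.5 ± 115.6 against 1327 ± 158 (SD, n = 3 each). Ly6c1, a neighbour of Ly6a, had 25 reads in 4T1 and 1 in 4TO7, a ratio of 25.0 (exact 95% counting interval 4.09 to 1025), and was not tested. Plaur, the urokinase receptor, stood at 4279 ± 564 and 4086 ± 1397 (SD, n = 3 each) and did not pass the test.

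Procr lies on the forward strand of chr2:155751117-155755471 (ENSMUSG00000027611). Its normalised read count was 3177, 1886 and 2222 in 4T1 and 1842, 1541 and 1364 in 4TO7. 4T1 replicate 1 was the highest, and the lowest 4T1 library, replicate 2, was barely above 4TO7 replicate 1. The means were 2429 ± 669.7 and 1582 ± 242 (SD, n = 3 each), a 1.53-fold difference (log2 fold change 0.59 ± 0.21 SE, limma adjusted p = 0.0478). The adjusted p was 0.125 without 4T1 replicate 1, 0.0804 without 4T1 replicate 3, and 0.0526, 0.0616 and 0.146 without 4TO7 replicates 1, 2 and 3. Over all 16 alternatives it ranged from 0.0123 to 0.146, and the log2 fold change from 0.38 to 0.76.

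The protein C receptor works with protease-activated receptors at the cell surface. Of 15 genes listed around protein C, coagulation and these receptors, 5 reached the test. Called higher in 4T1 were 3 and called higher in 4TO7 was 1; the list's median log2 fold change was 1.73. Pros1, which encodes the cofactor protein S, was at 325 ± 52.8 in 4T1 and 9.66 ± 5.73 in 4TO7 (SD, n = 3 each). The protease-activated receptor genes F2rl1 and F2r were at 4405 ± 1230.4 against 219 ± 87.7 and at 8418 ± 1028 against 2529 ± 233 (SD, n = 3 each). Tfpi, the inhibitor of the tissue factor pathway, ran the other way at 17.2 ± 2.72 and 2209 ± 183 (SD, n = 3 each), a 129-fold higher mean in 4TO7 (limma adjusted p = 1.44e-07). Thbd, thrombomodulin, had 0 reads in every library. F3, tissue factor itself, did not pass the test, at 471 ± 49.9 and 439.8 ± 111 (SD, n = 3 each).

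**Figure D3:**
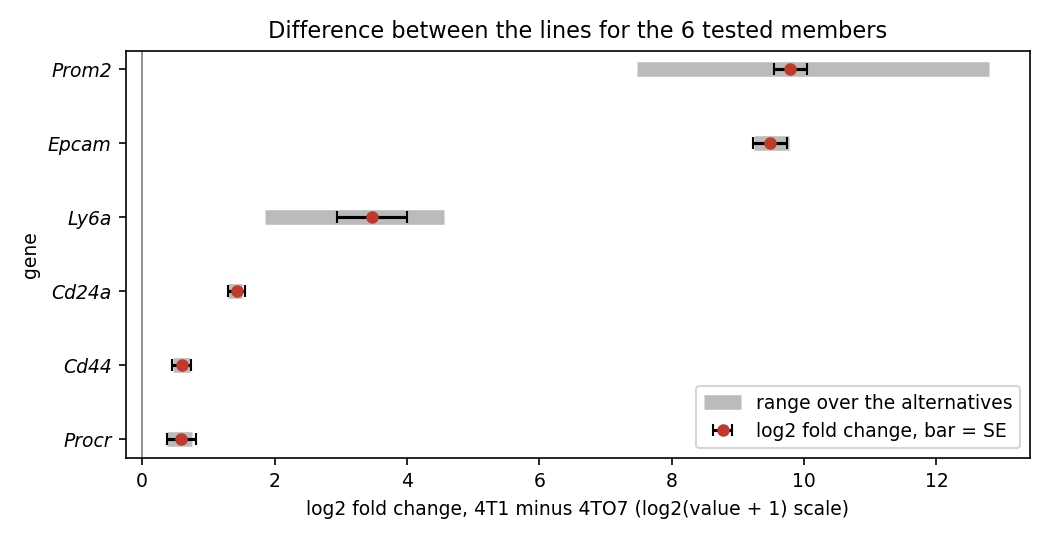
Log2 fold change, 4T1 minus 4TO7 on the log2(value + 1) scale, of the 6 tested genes (points, with standard error), and the range over the 16 alternative analyses, or 15 for Ly6a (grey). No estimate crosses 0; Prom2 and Ly6a, with 0 and 2 reads in 4TO7, have the widest ranges, and Cd44 and Procr lie closest to 0.

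The other genes used to mark mammary stem and progenitor cells were split between the lines. Of 34, 19 were tested, 8 were higher in 4T1, 5 were higher in 4TO7, and the median log2 fold change was -0.00288. Alcam, an adhesion molecule of the immunoglobulin family, had 6737 reads in 4T1 and 2 in 4TO7, a ratio of 3365 (exact 95% counting interval 931 to 27793). Eng, which encodes endoglin, a coreceptor for the transforming growth factor beta family, was at 2681 ± 286.5 and 53.1 ± 28.4, and Nes, the intermediate filament nestin, at 10978 ± 904 and 1564 ± 285 (SD, n = 3 each). The 5 genes higher in 4TO7 were Sox9 and Klf4, which encode transcription factors, Itgb3, an integrin subunit, and Lgr4 and Lgr6, R-spondin receptors. Sox9 was at 3611 ± 134 in 4T1 and 13826 ± 1799 in 4TO7, and Klf4 at 700.8 ± 47.4 and 3560.1 ± 1066 (SD, n = 3 each). Itga6, the integrin subunit CD49f that is sorted with CD24 and EpCAM in the mouse mammary gland, did not pass the test, at 11835 ± 2631 and 12095 ± 2542 (SD, n = 3 each; limma adjusted p = 0.90), with overlapping libraries. Kit, Sox2, Nanog and Thy1 had 0 reads in every library.

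**Figure D4:**
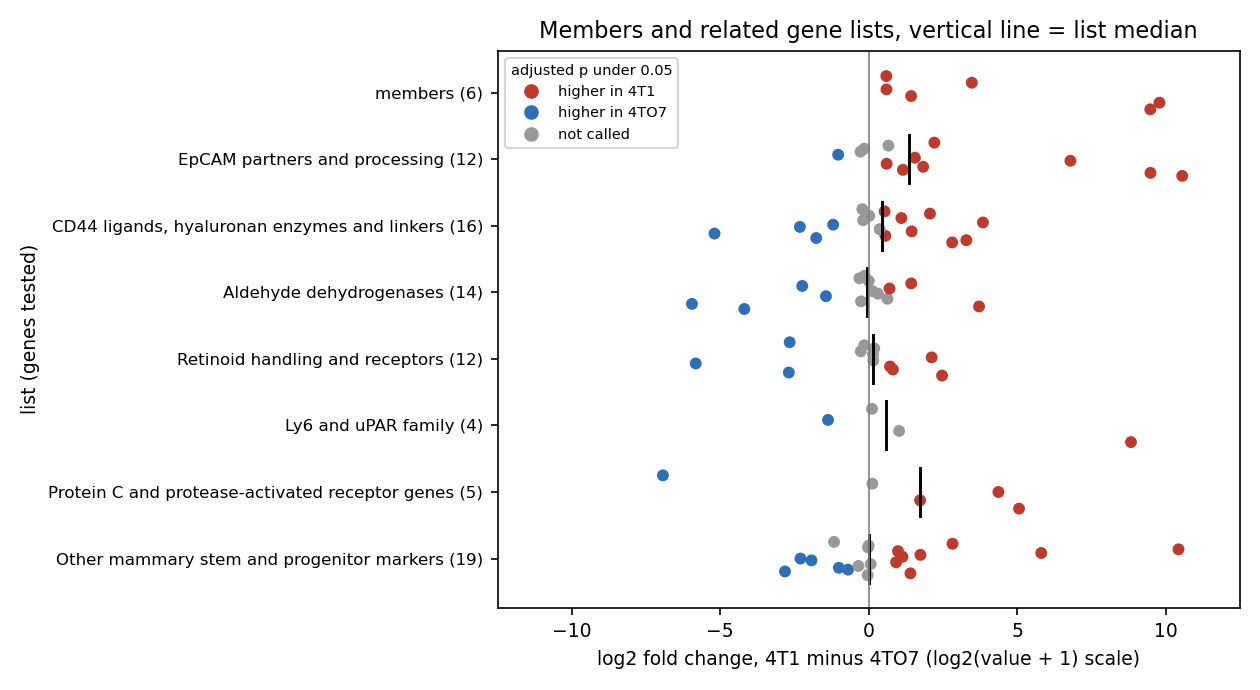
Log2 fold change, 4T1 minus 4TO7, of every tested gene in the members and in 7 related lists (points; red higher in 4T1, blue higher in 4TO7, grey not called; vertical bar, list median). The 6 tested members lie to the right of 0, while the aldehyde dehydrogenase, retinoid and progenitor lists spread to both sides with medians of -0.07, 0.15 and -0.00288.

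Levels of different genes were ordered by RPKM (reads per exon kilobase, scaled to the library total). The length used is the union of annotated exons, whichever of them a line uses, so the order is approximate. Epcam (204.6 ± 24.3) and Cd24a (203.3 ± 13.1) led in 4T1 and overlapped each other (SD, n = 3 each). Cd44 followed at 117 ± 14.6, Procr at 31.7 ± 9.33, Prom2 at 4.52 ± 0.168 and Ly6a at 0.346 ± 0.142, each level apart from the next. In 4TO7 the order was led by Cd44 (84.2 ± 5.62) and Cd24a (82.6 ± 7.14), which overlapped, and then Procr (22.5 ± 3.84) and Epcam (0.312 ± 0.122; SD, n = 3 each). Epcam thus moved from the head of the order in 4T1 to below Procr in 4TO7. Below it, Aldh1a1 at 0.0539 ± 0.0393 and Ly6a at 0.0158 ± 0.0274 overlapped, as did Ly6a, Aldh1a3 and Prom1 among themselves.

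**Figure D5:**
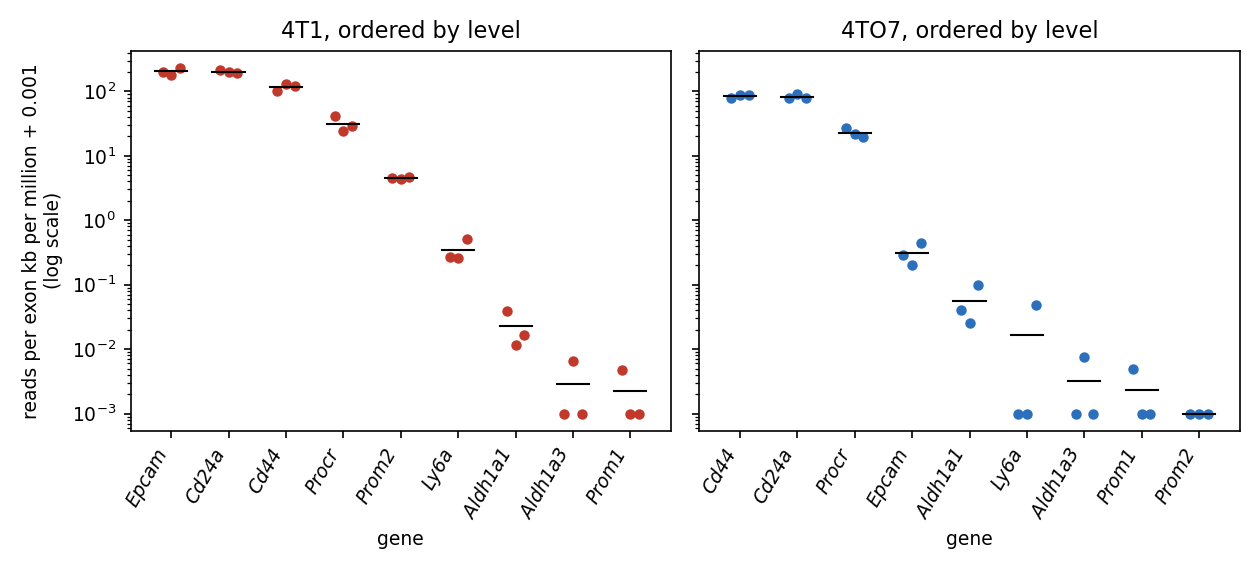
RPKM plus 0.001, on a log scale, of the 9 genes in 4T1 (left) and 4TO7 (right), ordered by the mean within each line (points are libraries, bars the means). Epcam and Cd24a lead in 4T1 at 204.6 and 203.3, and Cd44 and Cd24a lead in 4TO7 at 84.2 and 82.6.

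The genes whose pattern over the 6 libraries was most like that of each tested gene were named by Pearson's r of log2 values, as a description in which the gap between the 2 lines dominates. For Epcam they were St14 (r = 0.99995), already met as a protease gene of EpCAM processing, and Dapk1, a death-associated kinase (0.99975). For Cd24a they were Apbb1ip and Asb16 (both 0.999), for Cd44 Efna5 (0.998) and Fat1 (0.997), and for Procr Eci1 (0.997) and Mpc2 (0.995). For Prom2 they were Vash1 and 2010300F17Rik (both 0.99999), and for Ly6a Mef2c and C130074G19Rik (both 0.997). Likeness above 0.99 was common for the genes with a wide or tight gap, with 451, 466 and 299 of 14275 genes for Epcam, Prom2 and Cd24a, and rare for Cd44, Ly6a and Procr, with 14, 14 and 6.

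Some protein-coding genes next to Epcam and Prom2 on the chromosome are given to show their levels beside those 2 genes, and were chosen after the values had been seen. Calm2, a calmodulin gene that precedes Epcam, was higher in 4TO7, at 19319 ± 386 against 31397 ± 4150 (SD, n = 3 each). Kcnip3, 4379 bases from Prom2, had 3 reads in 4T1 and 0 in 4TO7, and Zfp661, on its other side, was at 88.7 ± 7.11 and 152 ± 30.6 (SD, n = 3 each). Calm2 and Zfp661 differed far less than Epcam or Prom2 did, and Kcnip3 had too few reads to compare.

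The authors' deposited table gives its own comparison, with fold changes as 4TO7 over 4T1. Its log2 fold changes were -9.48 for Epcam, -12.2 for Prom2, -1.43 for Cd24a, -0.61 for Cd44, -4.57 for Ly6a and -0.62 for Procr. The adjusted p-values in the authors' deposited table were 0.00245 for Cd44, 0.00135 for Ly6a, 0.0301 for Procr and 0.34 for Aldh1a1, and it lists none for Prom1 or Aldh1a3.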

How the data were processed

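STAR 2.5, featureCounts 1.5, DESeq2 and GRCm38 are named, without roles, per the submitters' processing notes; the annotation release and the use of strand are not given in the sources used here. The 6 deposited sample columns are a normalised signal, gene reads divided by 1 size factor per library (0.954 to 1.07), per the file headers and the values. Nonzero values were whole multiples of 1 step per library (100% within 1e-06), which gave back the read counts. The same deposited table holds the authors' log2 fold changes, their standard errors, a test score, p-values and adjusted p-values.

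The 14276 of 47729 genes that reached a value of 10 in 3 or more of the 6 libraries were compared on log2(value + 1) with limma 3.58.1 in R 4.3.3 (line as the single term, trend, robust), two-sided, Benjamini-Hochberg adjusted over all, threshold 0.05. On that scale fold changes of low genes are understated; other folds are ratios of line means. With 0 reads in a line, the bound uses 3 reads over its 3 libraries; with 1 to 3 reads, a ratio of reads per size factor with an exact 95% interval is given. Floors and intervals cover counting error only. Levels per length use the union of GENCODE exons on GRCm38.

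Members, 7 gene lists (147 genes) and 6 marker lists were chosen with earlier results of these data known. Named genes are the 9 members, for each list up to 3 called, non-overlapping genes of largest fold change, a fixed set of partners (among them Cldn7, Has2, Spp1, Aldh1a2, Aldh1a7, Rarb, Ly6c1, Ly6e, Thbd, F2r and Itga6) and the 2 genes most like each tested member. All other genes named were chosen after their values were seen, and some genes that the rule names are not reported here. Alternatives changed the pseudocount (0.5 or 5), the filter (none or 50), the scaling, the variance model, the libraries and the test (edgeR 4.0.16, DESeq2 1.42.0), and added a replicate block. On simulated data (14054 genes, 200 of them changed), limma recovered 6.67%, 46.9% and 91.8% of genes changed 1.5-fold, 2-fold and 4-fold. Of its calls, 9% were false. In the real comparison 49.0% of the genes tested were called, a far larger share, so these rates may not hold for it.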

Additional observations from a re-analysis of the deposited data

How the results depend on the processing

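Epcam, Cd24a and Cd44 kept their direction and stayed under the threshold in all 16 alternatives. Prom2 did so too, and Ly6a in the 15 that tested it (the filter at 50 removed it), but both were selected through 4T1 alone, so this says nothing about their stability. Procr kept its direction but passed the threshold in 7 of 16: beside the libraries left out above, its adjusted p was 0.117 with equal totals, 0.0647 with TMM scaling, 0.0763 without trend and robust moderation and 0.0524 in edgeR, against 0.0275 in DESeq2. Equal totals moved the median log2 fold change of all genes from 0.03 to -0.10. The number of members higher in 4T1 was 5 or 6 in each of these. Leaving out 1 library gave 2751 to 4162 genes higher in 4T1, 2491 to 3902 higher in 4TO7, and 5 or 6 members higher in 4T1; the spread is pooled over the lines. These fits kept the genes that passed the filter over all 6 libraries, a choice made after a first version had applied the filter again to the 5 libraries left. With the filter applied again, which needs 3 libraries at 10 and so removes genes seen in 4T1 alone, the ranges were 2290 to 4146, 2007 to 3399 (2007 without 4TO7 replicate 1, 2031 without replicate 3) and 3 to 5 members, Prom2 and Ly6a were not tested when any 1 of the 4T1 libraries was left out, and Cd44 had an adjusted p of 0.0506 without 4TO7 replicate 1.

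Among the lists, the genes higher in 4TO7 around EpCAM were 2 without a filter or with equal totals, those around CD44 were 2 with the filter at 50, and the Ly6 family had 3 higher in 4T1 without a filter and 2 without 4T1 replicate 3. With the filter applied again, genes higher in 4T1 were 5 around EpCAM without 4T1 replicate 1, 1 among the aldehyde dehydrogenases without 4T1 replicate 2 or 3, and 0 in the Ly6 family without 4T1 replicate 1 or 2, and those higher in 4TO7 around CD44 were 2 without 4TO7 replicate 3. The replicate block gave 3990 genes higher in 4T1, 3760 higher in 4TO7 and 6 members, with Procr at an adjusted p of 0.0123. Deviations of same-numbered libraries from their line means correlated at -0.0135, 0.266 and 0.328, and 4T1 replicate 1 correlated best with 4TO7 replicate 2 (0.108), so the numbers were not taken as pairs. Depth limits Prom1 and Aldh1a3, with 1 read per line, Aldh1a1, and the size of the Prom2 and Ly6a differences.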
